A study of Gossypium hirsutum with 6 samples.

Results

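Chromosomes A04, A05, D04 and D05 of upland cotton (Gossypium hirsutum) were examined for where peaks of 2 histone marks, H3K4me3 and H3K27me3, lie along them. All peaks that the deposited lists place on these 4 of the 26 chromosomes were taken, with no other choice. They comprise 28296 of the 174507 peaks in the 4 lists. The H3K4me3 replicate 1 list gave 12544 of its 76736 peaks, and the H3K27me3 replicate 1 list gave 3866 of its 23427.

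Leaves of the cultivar TM-1 were collected from untreated plants at an age of 20 days, and chromatin digested with micrococcal nuclease was precipitated with an antibody against either mark (ChIP-seq). The series holds 6 samples of this single genotype, namely 2 per antibody and 2 inputs that skipped precipitation, and the peak lists of the 4 antibody libraries were analysed here. Whole leaves mix cell types, so a peak carried by few cells and a weak peak carried by all cells cannot be told apart. The lists hold positions only, with no height and no read number, and the depth behind a peak is therefore unknown.

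Both replicate 1 lists carry the same mark in the sample label and in the deposited name. The second libraries do not. A list of narrow peaks was deposited under an H3K4me3 name for the sample labelled H3K27me3, and a list of broad peaks was deposited under an H3K27me3 name for the sample labelled H3K4me3. They are called the narrow replicate 2 list (7360 peaks on the 4 chromosomes) and the broad replicate 2 list (4526 peaks). All results rest on the replicate 1 lists, and values of the replicate 2 lists are set beside the mark of their deposited name. On the 4 chromosomes, 49.6% to 52.1% of H3K4me3 replicate 1 peaks overlapped a peak of the narrow replicate 2 list, against 14% to 16.8% for the broad one. Of H3K27me3 replicate 1 peaks, 85.5% to 93.2% overlapped a peak of the broad replicate 2 list, against 2.11% to 3.30% for the narrow one. With 1 list per mark free of this conflict, no test between chromosomes was run. Intervals below are exact Clopper-Pearson 95% intervals, which count peaks as independent and leave out every error but that of counting.

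H3K4me3 is placed by Trithorax-group methyltransferases around the start of transcribed genes, and H3K27me3 is placed by Polycomb repressive complex 2 over genes that are kept silent. Upland cotton is an allotetraploid that joined an A-genome and a D-genome diploid. Each of its 13 chromosome numbers occurs once in each subgenome, and the chromosomes of a pair are homoeologous, at least in part. The A subgenome is known to carry reciprocal translocations relative to the D subgenome, one between chromosomes 4 and 5 and another between chromosomes 2 and 3. Under such an exchange single pairs may be unequal in gene content, while the sums over both pairs are kept.

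Numbers of peaks were the first comparison. In the replicate 1 lists H3K4me3 had 1590 peaks on A04, 4425 on A05, 2209 on D04 and 4320 on D05. The narrow replicate 2 list had 960, 2644, 1270 and 2486 peaks on these chromosomes in the same order. A04 was the poorest in both lists, and A05 and D05 each held about as many peaks as the other. H3K27me3 replicate 1 had 545 peaks on A04, 1130 on A05, 677 on D04 and 1514 on D05, and the broad replicate 2 list had 618, 1368, 762 and 1778. D05 was thus the richest in the repressive mark in both lists, and A04 again the poorest.

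Ratios within a pair are given as the log2 of the D to A peak number, in which 0 is parity and positive values mean more peaks on the D chromosome. The other 11 pairs serve as the comparison, and 9 of them remain when pairs 2 and 3 are set aside. Over these 9 pairs the H3K4me3 ratio of replicate 1 was 0.08 ± 0.06 (SD, n = 9 pairs), from 0.01 to 0.16. Pair 4 had a ratio of 0.47 (0.38 to 0.57) and lay above all 9 pairs. Pair 5 had a ratio of -0.03 (-0.10 to 0.03) and lay below all 9, although its interval overlapped their range. Pairs 2 and 3 showed the same kind of split, with ratios of 0.49 and -0.31. Summed over A04 and A05 against D04 and D05, 6015 peaks stood against 6529, which is a ratio of 0.12 (0.07 to 0.17) and lies within the range of the 9 pairs. A summed ratio always lies between the single ratios, so only its place relative to the other pairs is read.

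The narrow replicate 2 list gave 0.40 (0.28 to 0.53) for pair 4, -0.09 (-0.17 to -0.01) for pair 5 and 0.06 (-0.01 to 0.13) for the sum. Its 9 other pairs ranged from -0.12 to 0.12. Pair 4 was again above all of them and the sum again within them, but pair 5 now lay within them as well. Pairs were also crossed. A04 with D05 had a ratio of 1.44 and A05 with D04 a ratio of -1.0 in replicate 1, both far outside the range of all 11 other pairs (-0.31 to 0.49).

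The same comparison in peaks per chromosome shows how far the shortfall and the surplus balance. At the summed ratio of the 9 other pairs, D04 would be matched by 2092 H3K4me3 peaks on A04, and 502 fewer were listed (24.0% fewer). D05 would be matched by 4091 peaks on A05, and 334 more were listed (8.17% more). The sum of A04 and A05 came to 167 peaks fewer than at that ratio (2.71% fewer). In the narrow replicate 2 list A04 held 297 peaks fewer, A05 183 more, and both together 114 fewer (3.06%). The shortfall of A04 was therefore larger than the surplus of A05 in both lists.

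H3K27me3 did not follow this pattern. The ratio over the 9 other pairs was 0.23 ± 0.09 (SD, n = 9 pairs) in replicate 1, from 0.07 to 0.33. Pair 4 had a ratio of 0.31 (0.15 to 0.48) and lay within the range, while pair 5 had 0.42 (0.31 to 0.53) and lay above it. The sum of 2191 D peaks against 1675 A peaks gave 0.39 (0.29 to 0.48), above the 9 pairs, although its interval reached into their range. Pairs 2 and 3 had ratios of 0.74 and -0.02 (0.71 and 0.06 in the broad replicate 2 list). Pair 2 thus lay above both pair 5 and this sum, and a value above the 9 pairs is not particular to pairs 4 and 5. The broad replicate 2 list gave 0.30 for pair 4, 0.38 for pair 5 and 0.35 (0.27 to 0.44) for the sum, with the 9 pairs between 0.10 and 0.36. There the sum fell just within the range. A04 and A05 were both short of H3K27me3 peaks against the ratio of the 9 other pairs, by 33.7 and 164 peaks in replicate 1, so a surplus on one did not offset a shortfall on the other.

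**Figure D1:**
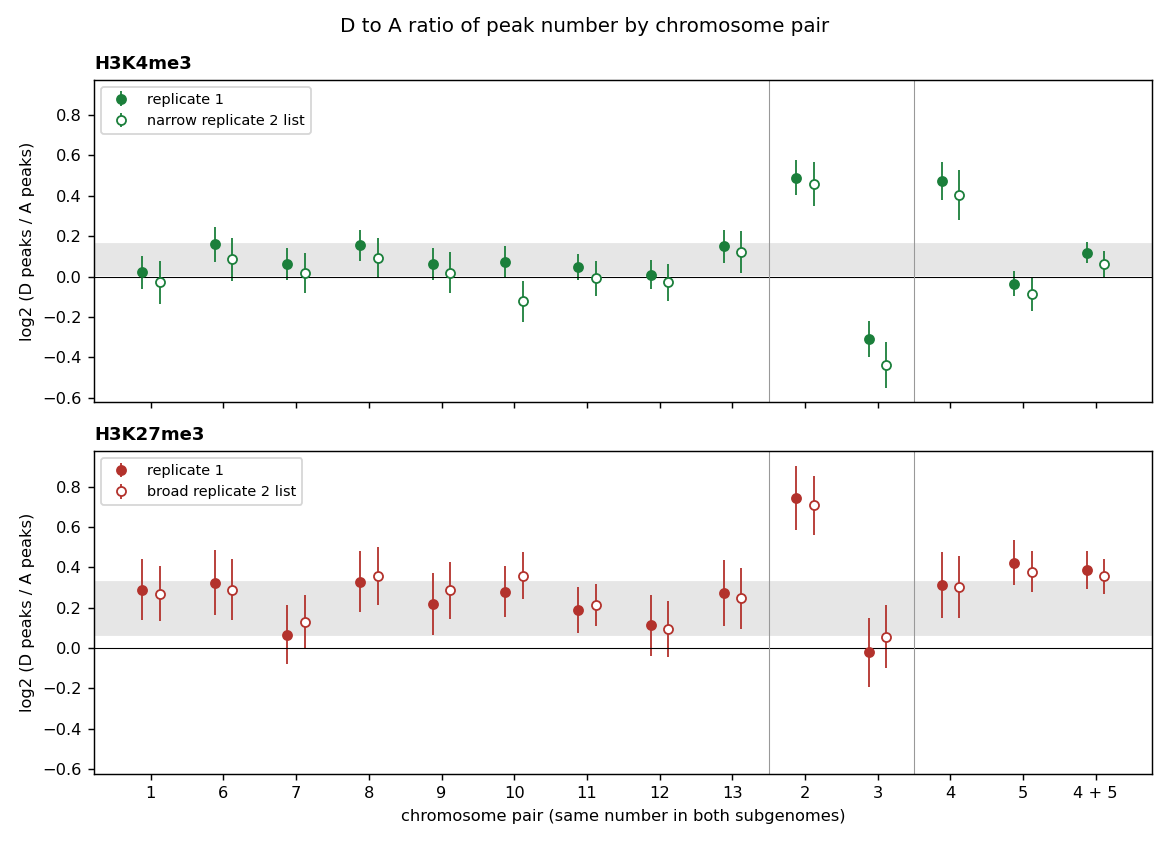
Peak number on the D chromosome over that on the A chromosome (log2) for each pair and for pairs 4 and 5 summed (4 + 5), H3K4me3 above and H3K27me3 below. Filled points are replicate 1, open points are the replicate 2 lists by deposited name, bars are exact 95% intervals for counting error, and the grey band is the range of the 9 pairs other than 2 to 5 in replicate 1. For H3K4me3 the sum lies at 0.12 within the band, and for H3K27me3 it lies at 0.39 above it.

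Chromosome length, measured between the outermost peaks of any list, was 62.9 Mb for A04, 92.0 Mb for A05, 51.4 Mb for D04 and 61.9 Mb for D05. The D to A length ratio was -0.29 on the log2 scale for pair 4, -0.57 for pair 5 and -0.45 for the sums of 113 Mb against 155 Mb. The 9 other pairs ranged from -0.70 to -0.40. Pair 4 thus stood outside the range in length, on the side of a short A chromosome, while pair 5 and the sum lay within it. Per Mb, H3K4me3 replicate 1 had 25.3 peaks on A04, 48.1 on A05, 43.0 on D04 and 69.8 on D05, and H3K27me3 replicate 1 had 8.66, 12.3, 13.2 and 24.5. Peaks were denser on the D chromosome of both pairs for both marks, as they were in every other pair.

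Peaks of the assembly that are not placed on a chromosome but on scaffolds named after one could shift these numbers. Such scaffolds held 12% of the H3K4me3 replicate 1 peaks attributed to A04, 9.97% for A05, 4.83% for D04 and 5.08% for D05. The shares on the other 22 chromosomes ranged from 2.23% to 13.5%. With them added, the H3K4me3 ratio was 0.36 for pair 4, -0.11 for pair 5 and 0.03 for the sum.

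Widths of peaks hardly separated the chromosomes for the active mark. Median H3K4me3 width in replicate 1 was 491 bp on A04, 494 bp on A05, 517 bp on D04 and 497 bp on D05. Of these peaks, between 5 and 13 per chromosome reached 2 kb. H3K27me3 peaks were called in broad mode and had medians of 1392, 1364, 1361 and 1468 bp in the same order. Wide H3K27me3 domains of 8 kb or more numbered 17 on A04, 44 on A05, 20 on D04 and 89 on D05, and in the broad replicate 2 list 15, 32, 18 and 76. D05 held the most of the 4 chromosomes in both lists, while D11 held more (103 and 97) and D10 slightly fewer (81 and 74). H3K27me3 covered 6.27% of the length of D05, against 1.93% of A04, 2.67% of A05, 2.92% of D04 and 5.91% of D11.

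Peaks were then counted in 1 Mb windows by their midpoints. All 4 chromosomes were dense towards both ends and sparse in an inner region, and the 5 Mb with the fewest H3K4me3 replicate 1 peaks was used to split each chromosome. This stretch spanned A04:20000001-25000000 with 23 peaks, A05:49000001-54000000 with 25, D04:18000001-23000000 with 61 and D05:38000001-43000000 with 64. The same stretches held 8, 5, 15 and 19 H3K27me3 peaks, so they were sparse in both marks. The median window held 16 H3K4me3 peaks on A04, 33.5 on A05, 38 on D04 and 61 on D05. H3K27me3 medians were 5, 10.5, 8 and 25 peaks. A window with no H3K4me3 peak in replicate 1 occurred once, on A05.

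**Figure D2:**
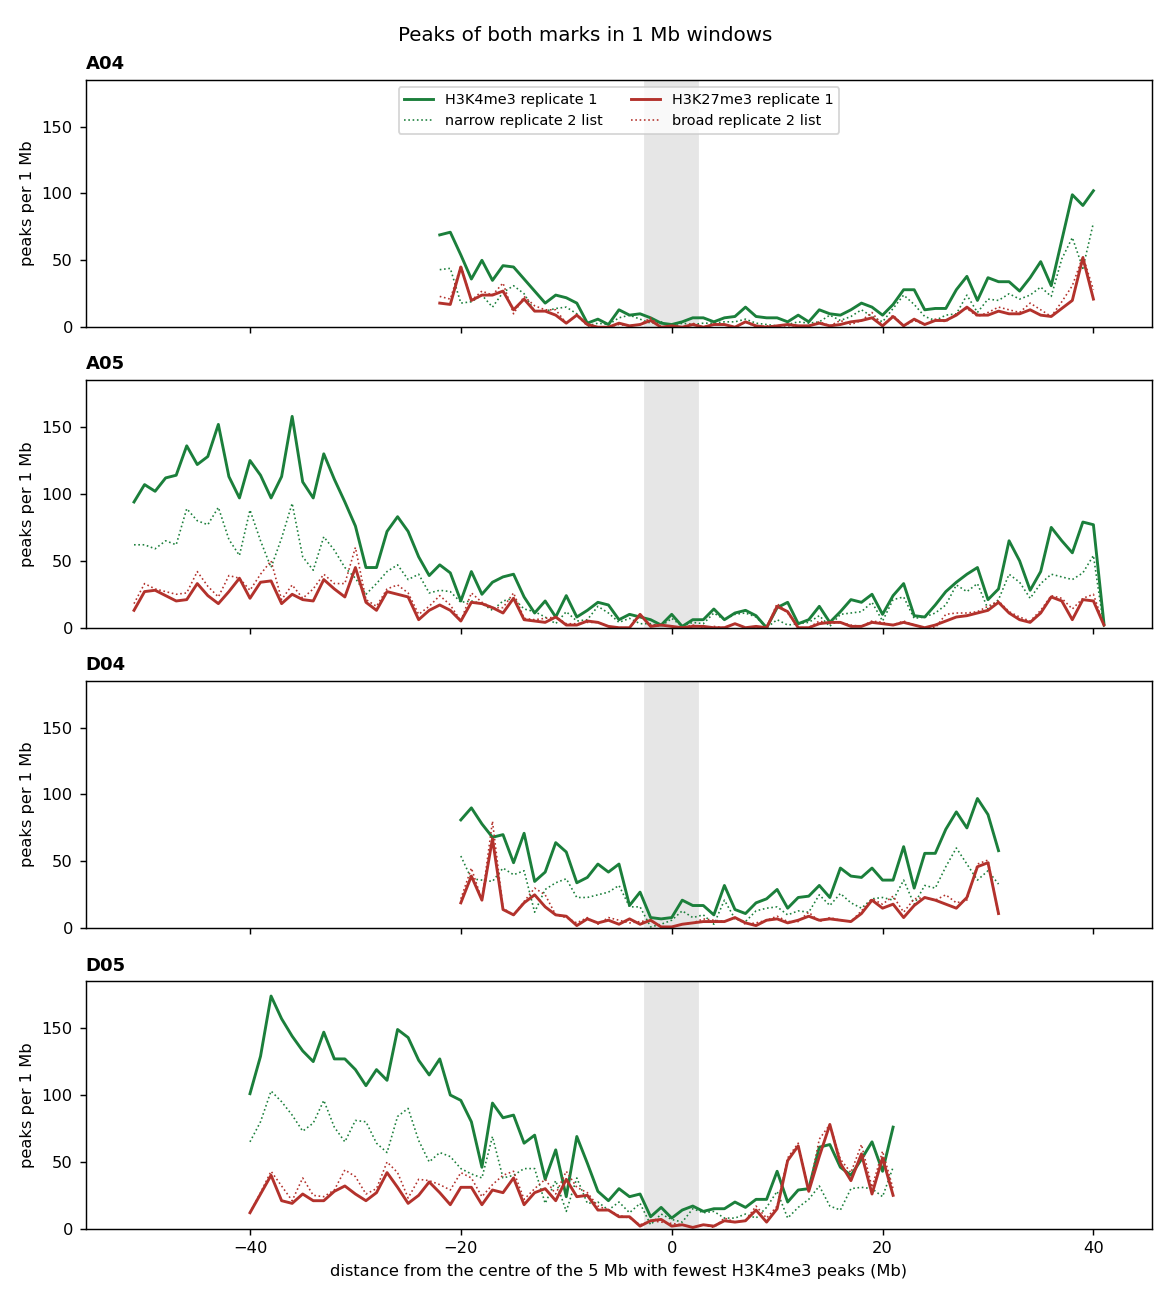
Peaks per 1 Mb window along A04, A05, D04 and D05, plotted by distance in Mb from the centre of the 5 Mb with the fewest H3K4me3 replicate 1 peaks (grey). Solid lines are the replicate 1 lists and dotted lines the narrow and broad replicate 2 lists. The left sides of A05 and D05 reach 158 and 174 H3K4me3 peaks, and the right end of D05 reaches 78 H3K27me3 peaks, at or above its H3K4me3 number in several windows.

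The left sides of A05 and D05 were the most H3K4me3-rich regions of the 4 chromosomes. The first 20 windows held 2331 H3K4me3 peaks on A05 (52.7% of its peaks) and 2580 on D05 (59.7%), and 1346 and 1500 in the narrow replicate 2 list. On A04 and D04 the first 20 windows held 594 (37.4%) and 974 (44.1%). Left of the sparse stretch lay 76.4% of H3K4me3 peaks on A05 and 83.2% on D05, against 38.0% on A04 and 44.2% on D04. The narrow replicate 2 list gave 73.9%, 84.1%, 35.7% and 44.8%. A05 and D05 were alike in this lopsided profile, which also held per Mb (65.7 left and 25.8 right on A05, 88.7 and 33.9 on D05). On A04 and D04 the right side held more peaks but is longer, and per Mb the left side was slightly denser in replicate 1 (26.8 against 24.4 on A04, 47.8 against 39.8 on D04).

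For H3K27me3 the similarity of A05 and D05 ended at the right arm. Right of the sparse stretch, A05 held 254 H3K27me3 peaks (6.27 per Mb) and D05 held 579 (27 per Mb). The broad replicate 2 list held 297 and 637 there. H3K4me3 numbered 1046 peaks right of the stretch on A05 and 726 on D05, which is 25.8 and 33.9 per Mb, since this arm is 40.5 Mb long on A05 and 21.4 Mb on D05. Per 100 H3K4me3 peaks, the left arms of A05 and D05 thus carried 25.9 and 26 H3K27me3 peaks, and the right arms carried 24.3 and 79.8. A04 and D04 carried 44.2 and 29.5 on the left and 28.2 and 31.6 on the right. The left arm of A04 and the right arm of D05 were the arms with the most H3K27me3 relative to H3K4me3, and they remained so with the replicate 2 lists (85.7 and 161, all other arms 43.0 to 61.5).

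The last 10 full or partial windows of D05 carried 467 H3K27me3 and 505 H3K4me3 peaks. H3K27me3 outnumbered H3K4me3 in 7 of the 62 windows of D05, against 2 of 93 on A05 and none on A04 and D04. Over the other 22 chromosomes this number ranged from 0 to 5. With the replicate 2 lists, which hold fewer narrow and more broad peaks, it was 17 on D05, 12 on A04, 14 on A05 and 10 on D04. The other chromosomes reached 19 there, but chromosomes differ in their number of windows. As a share of windows D05 had 11.3% in replicate 1 and 27.4% with the replicate 2 lists, against at most 7.81% and 25.4% on the other 22 chromosomes. A comparison of the densest 10 Mb was added after these profiles were seen. The densest 10 Mb of H3K27me3 on D05 held 493 peaks with 449 H3K4me3 peaks, or 110 per 100. The densest 10 Mb of each of the other 22 chromosomes held 158 to 546 peaks and 23.6 to 90.7 per 100 H3K4me3 peaks. In number D05 came after D11, and with the replicate 2 lists (536 peaks) after D11 and D10 (641 and 579). In the ratio of the marks it was above all 22, and with the replicate 2 lists it was 239, against a highest value of 233 on D10.

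Across 1 Mb windows the numbers of both marks rose and fell together on A04 (Spearman correlation 0.89, Pearson correlation 0.80, 62 windows), A05 (0.87 and 0.82, 92 windows) and D04 (0.72 and 0.68, 51 windows). On D05 the values were 0.46 and 0.27 over 61 windows. The replicate 2 lists gave Spearman correlations of 0.37 on D05 and 0.61 to 0.84 on A04, A05 and D04. Windows of a chromosome share its libraries and neighbour one another, so these values are descriptions and carry no p. Lists deposited under the same mark name followed each other closely, with Spearman correlations between 0.95 and 0.98 for H3K4me3 and between 0.95 and 0.99 for H3K27me3.

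Single regions mark the extremes. The window with the most H3K4me3 replicate 1 peaks was D05:2000001-3000000, with 174 peaks covering 9.71% of it and 40 H3K27me3 peaks. On A05 it was A05:15000001-16000000 with 158 peaks, on A04 the last window (A04:62000001-63000000, 102 peaks in its listed part) and on D04 D04:49000001-50000000 with 97. The narrow replicate 2 list held 103, 93, 78 and 36 peaks in these windows. The window with the most H3K27me3 peaks was D05:55000001-56000000, with 78 peaks in each of the replicate 1 and broad replicate 2 lists, covering 29.5% and 27.9% of it. It was followed by D04:3000001-4000000 with 67 peaks, A04:61000001-62000000 with 52 and A05:21000001-22000000 with 45.

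The widest H3K27me3 peaks were D05:55445876-55484068 (38193 bp), D04:50909505-50937531 (28027 bp), A04:2076107-2096294 (20188 bp) and A05:19453826-19471024 (17199 bp). Peaks of the broad replicate 2 list covered 98.4%, 96.7%, 90.3% and 81.1% of these, so all were found again. The one on D05 also overlapped 7 H3K4me3 replicate 1 peaks, which covered 9.90% of it, and no peak of the narrow replicate 2 list.

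The widest H3K4me3 peaks were less repeatable. They were D05:20693320-20697109 (3790 bp), D04:44899916-44903583 (3668 bp), A04:44005-46438 (2434 bp) and A05:62915483-62917782 (2300 bp), and the narrow replicate 2 list had no peak in any of them. H3K27me3 replicate 1 peaks overlapped the ones on D05, D04 and A05 and covered 71.9%, 22.5% and 100% of them. The longest gaps between H3K4me3 replicate 1 peaks were A05:59803768-61037885 (1234118 bp), A04:15747530-16913894 (1166365 bp), D04:18548626-19477500 (928875 bp) and D05:39810625-40376746 (566122 bp). The gap on A05 had no peak in the narrow replicate 2 list either. No gene annotation of this assembly was used here, so no genes are named for these regions.

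Both marks met on a minority of peaks. In replicate 1, 267 of 1590 H3K4me3 peaks on A04 overlapped an H3K27me3 peak (16.8%, 15.0% to 18.7%), 590 of 4425 on A05 (13.3%, 12.3% to 14.4%), 362 of 2209 on D04 (16.4%, 14.9% to 18.0%) and 675 of 4320 on D05 (15.6%, 14.6% to 16.7%). A04 lay above the 11.2% to 15.3% of the other 11 A chromosomes, although its interval reached into that range. D04 and D05 lay within the 12% to 20.0% of the other 11 D chromosomes. With the replicate 2 lists A04 (1.77%) lay within the 0.75% to 2.09% of the other 11 A chromosomes. Between the narrow and broad replicate 2 lists the shares were 1.77%, 1.32%, 1.65% and 1.49%. An overlap of the marks of the size in replicate 1 was therefore not found between the replicate 2 lists. As given above, 14% to 16.8% of H3K4me3 replicate 1 peaks overlapped the broad replicate 2 list. Only 2.11% to 3.30% of H3K27me3 replicate 1 peaks overlapped the narrow one, so the low shares went with the narrow list.

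Whether the order of peaks along A04 and A05 resembles that along D04 or D05 was asked next. A measure on fixed runs of 300 H3K4me3 peaks found the D chromosome of the same number in only 75 of 424 runs of the 9 other A chromosomes (17.7%), and its outcome for A04 and A05 is therefore not read. A local alignment was used instead, chosen after the data were seen. Peaks of both marks less than 1000 bp apart were joined into loci, and each locus was described by its length, the bases under either mark and the distance to the next locus, scaled to its neighbours. The best-scoring run of loci in the same order, forward or inverted, was sought for each A chromosome with each D chromosome. Its settings were picked by how well the 9 other pairs found their partners, so their scores are not an independent check. The 9 pairs scored 69.9 to 303, and all 9 scored highest with the D chromosome of the same number. The 152 combinations of different numbers, leaving out those between 2 and 3 and between 4 and 5, scored at most 44.6, with a median of 32.2.

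A05 with D05 scored 324, the highest of all 169 combinations. The aligned stretch covered A05:613787-61403752 and D05:1007020-45946777 in the same direction and paired 2775 loci. A05 with D04 scored 105, over A05:78263951-91420737 and D04:626304-10478861, in inverted direction and with 563 paired loci. A04 with D04 scored 68.3, over A04:50546134-59348227 and D04:40197640-46758191 in the same direction, with 277 paired loci. A04 with D05 scored 32.8 over 99 paired loci, close to the median of unrelated combinations, so this match was not above theirs. A05 scored above unrelated combinations with D05 at its left side and with D04 at its right side. A04 has fewer loci (1497, against 3939 on A05), so a short match of A04 with D05 may go unseen.

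**Figure D3:**
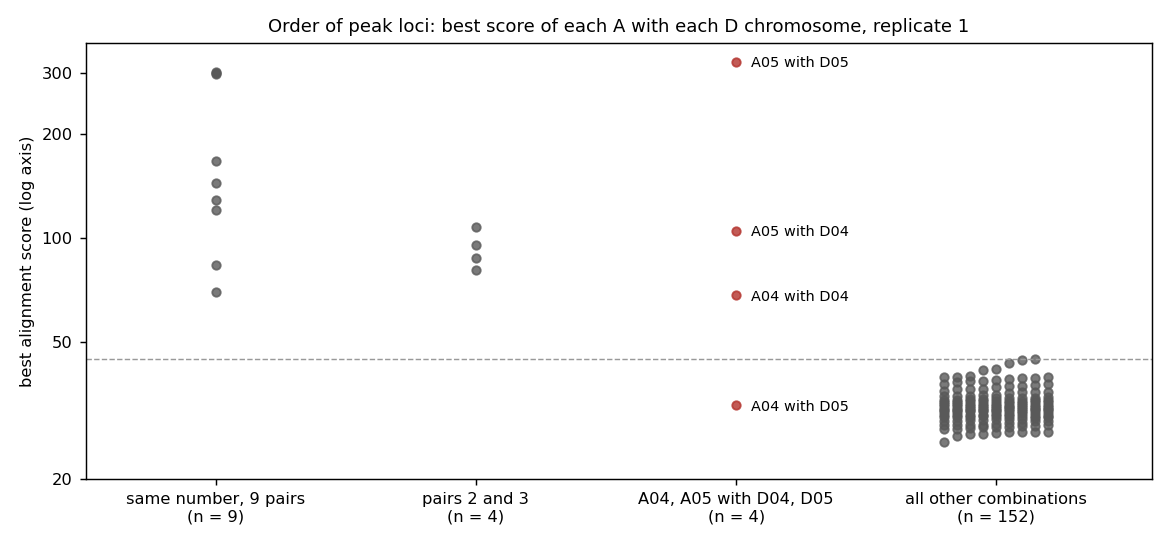
Best alignment score of the order of loci for each A with each D chromosome in replicate 1, on a log axis. The dashed line is the highest score of the 152 combinations at the right (44.6). A05 with D05 (324), A05 with D04 (105) and A04 with D04 (68.3) lie above it, and A04 with D05 (32.8) lies below.

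The replicate 2 lists, aligned on their own, gave A05 stretches with ends close to those of replicate 1. A05 with D05 scored 162 over 0.31 to 61.4 Mb of A05 and 0.90 to 45.9 Mb of D05. A05 with D04 scored 55.7, inverted, over 78.5 to 91.6 Mb of A05 and 0.45 to 10.6 Mb of D04. A04 with D04 scored 45.7 over 43.5 to 62.2 Mb of A04 and 35.9 to 50.6 Mb of D04, just under the highest score of unrelated combinations in these lists (45.9). This stretch was 18.7 Mb long on A04, against 8.80 Mb in replicate 1, and its start on A04 varied from 12.6 to 50.6 Mb over the other alignment settings. Its extent is therefore not settled by these data. A04 with D05 scored 33.0. With peaks under 2 kb apart joined, the A05 and D05 stretch ended at 33.9 Mb of A05 and 30.8 Mb of D05, and the A05 and D04 stretch began as early as 71.0 Mb of A05 under other settings. Single loci agreed less than the A05 stretches did. Of the A05 loci paired in both alignments, 21.4% were paired with the same D05 locus, and the D05 positions differed by a median of 34.0 kb. The shares were 18.4% for A05 with D04 and 17.8% for A04 with D04. Single pairs of loci are therefore not read as homoeologous genes.

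**Figure D4:**
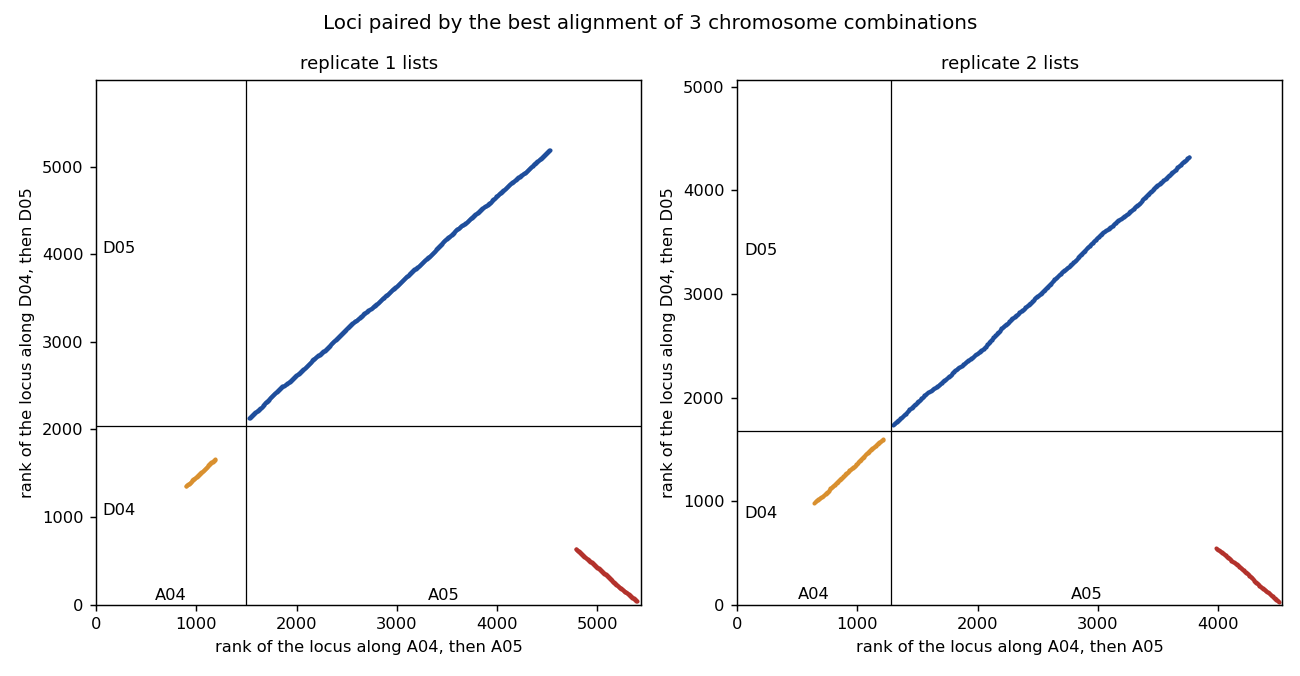
Pairs of loci (1 in 5 drawn) in the best alignments of A05 with D05 (blue), A05 with D04 (red) and A04 with D04 (orange), by rank of the locus along the chromosomes, for the replicate 1 lists (left) and the replicate 2 lists (right). A05 runs along D05 from its left end and along the first part of D04, inverted, at its right end, in both panels.

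Peak numbers within the aligned stretches are a description only. The alignment pairs loci one to one and takes off a penalty for each skipped locus, so near-equal numbers of loci on both sides are built in. The A05 and D05 stretch held 3409 peaks on A05 and 3569 on D05, a ratio of 0.07 (-0.002 to 0.13), over 60.8 and 44.9 Mb. The A05 and D04 stretch held 654 and 625 peaks (-0.07, -0.23 to 0.09) and the A04 and D04 stretch 314 and 330 (0.07, -0.16 to 0.30). In the narrow replicate 2 list these ratios were 0.07, -0.26 and -0.06. The middle one had an interval below 0 (-0.46 to -0.05) in that list.

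H3K27me3 peaks were counted in the same stretches. Along the A05 and D05 stretch 886 peaks stood against 938, a ratio of 0.08 (-0.05 to 0.22), and the broad replicate 2 list gave 0.09 (-0.03 to 0.21). Along the A05 and D04 stretch 169 peaks on A05 stood against 232 on D04, a ratio of 0.46 (0.16 to 0.75), and the broad replicate 2 list gave 0.46 (0.19 to 0.73). The intervals lay above parity in both lists but reached into the range of the 9 other pairs (0.07 to 0.33 in replicate 1). Split into 5 parts of equal length and read in the matched direction, the largest gap lay in the fourth part, with 49 peaks on A05 and 87 on D04. That part of D04 holds its most H3K27me3-rich window, described above. The A04 and D04 stretch had a ratio of 0.19 (-0.23 to 0.60).

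Numbers were also compared along the A05 and D05 stretch. In 10 parts of equal length, A05 exceeded D05 in H3K27me3 in the first 4 parts, with 636 peaks against 486, and D05 exceeded A05 in the other 6, with 452 against 250. H3K4me3 shifted the same way, with 2620 peaks on A05 and 2376 on D05 in the first 4 parts and 789 against 1193 in the other 6. In the seventh part D05 held 126 H3K27me3 peaks and A05 27. H3K4me3 in that part numbered 221 and 93. Parts of equal length need not hold the same loci, since A05 is longer than D05 over this stretch.

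D05 from 45.9 Mb to its end lay beyond the stretch aligned with A05. In the replicate 2 lists a further search outside the first 3 stretches paired 108 loci of A04 (0.55 to 2.69 Mb) with D05 (56.8 to 58.7 Mb) and 49 loci of A04 (5.65 to 6.85 Mb) with D05 (54.7 to 55.3 Mb). Their scores of 24.0 and 19.6 were below the median of unrelated combinations in these lists (27). That median is of best scores over whole chromosomes. The further search left out the loci already aligned, so the scores are not like for like. The search ended at stretch 5. In replicate 1, stretches 4 and 5 were of A04 with D04, at scores of 39.6 and 26.4. Lower-scoring pairings of A04 with D05 were thus not reached in replicate 1, and whether they repeat there cannot be told. The 16.0 Mb of this end held 650 H3K4me3 and 564 H3K27me3 peaks, or 86.8 H3K27me3 per 100 H3K4me3, against 26.3 within the aligned stretch. With the replicate 2 lists these values were 180 and 55.1. This end held 15.0% of the H3K4me3 peaks of D05 and 37.3% of its H3K27me3 peaks. It held 50 of the 89 H3K27me3 domains of 8 kb or more, and H3K27me3 covered 11% of it, against 4.72% of the aligned stretch. Of its H3K4me3 peaks, 28.3% (24.9% to 31.9%) overlapped H3K27me3, against 13.6% (12.5% to 14.8%) in the aligned stretch. With the replicate 2 lists both shares were low, 2.91% and 1.30%. The reverse share went the other way. Of the H3K27me3 peaks of this end, 25.2% (21.6% to 29.0%) overlapped H3K4me3, against 40.0% (36.8% to 43.2%) in the aligned stretch. With the replicate 2 lists these were 1.61% and 2.01%. More H3K4me3 peaks may overlap H3K27me3 where it covers more of the length, which was not tested. The alignment uses the bases under H3K27me3, so the border of this end was not set independently of that mark.

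The part of A04 before its stretch in replicate 1, 50.5 Mb long, was left unaligned there, although other alignment settings took in much of it and of the middle of D04. It held 948 H3K4me3 and 349 H3K27me3 peaks in replicate 1, and 536 and 381 in the replicate 2 lists. The gap on A05 between its aligned stretches, from 61.4 to 78.3 Mb, held 277 H3K4me3 and 61 H3K27me3 peaks. The middle of D04, between 10.5 and 40.2 Mb, held 794 and 173. These inner regions had 16.4 and 26.7 H3K4me3 peaks per Mb. The further search in replicate 1 paired 68 loci of A04 (61.5 to 62.2 Mb) with D04 (49.7 to 50.6 Mb). It also paired 46 loci of A04 (59.9 to 60.5 Mb) with D04 (47.6 to 48.1 Mb), both in the same direction. The ends of A04 and D04 that hold them are still counted as remaining stretches below.

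**Figure D5:**
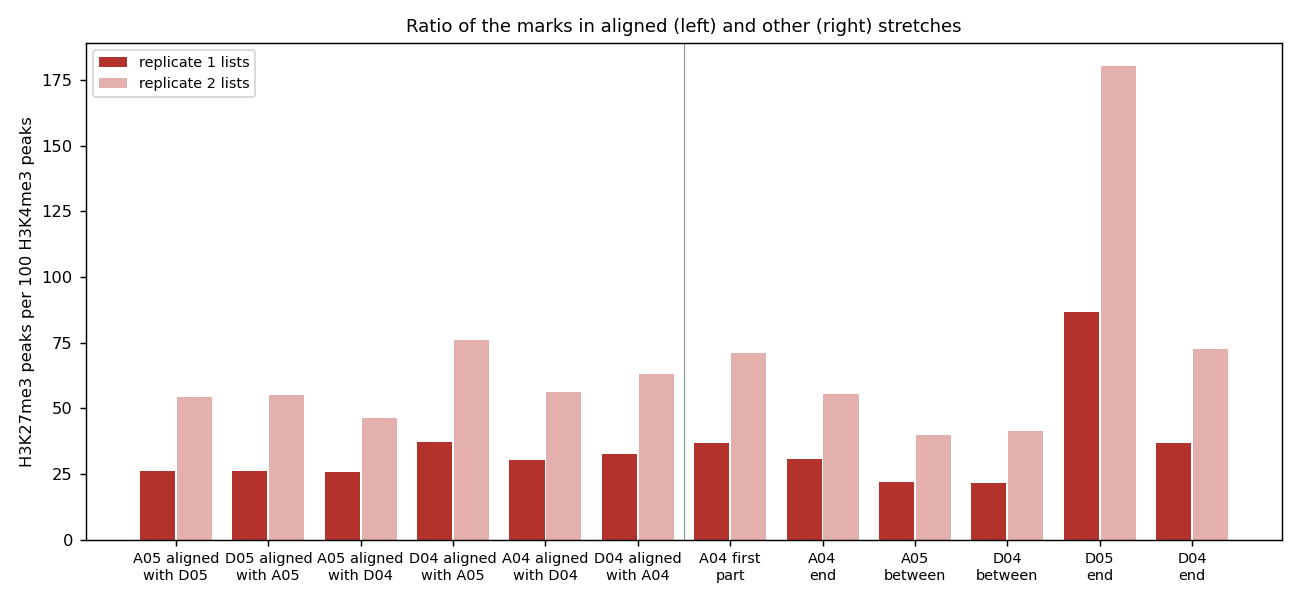
H3K27me3 peaks per 100 H3K4me3 peaks in the aligned stretches (left of the line) and in the remaining stretches (right), for the replicate 1 lists (dark) and the replicate 2 lists (light). The end of D05 stands at 86.8 and 180, and the other stretches lie between 21.8 and 37.1 in replicate 1 and between 40.0 and 76.0 in replicate 2.

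The surplus of H3K27me3 on the D side was also split by these stretches, as a description only. D04 and D05 together held 516 H3K27me3 peaks more than A04 and A05 in replicate 1, of which 52 lay within the A05 and D05 stretch and 464 outside it. In the replicate 2 lists the surplus was 554, of which 67 lay within. For H3K4me3, 160 of the surplus of 514 lay within the stretch. Counting the aligned A05 end with A04 gave 2244 H3K4me3 peaks against 2209 on D04, a ratio of -0.02 in place of 0.47. The same count for H3K27me3 gave 714 against 677, a ratio of -0.08 in place of 0.31. With the replicate 2 lists the ratios were -0.12 and -0.10. A05 without that end had a ratio to all of D05 of 0.20 for H3K4me3 and 0.66 for H3K27me3. In replicate 1 the 9 other pairs ranged from 0.01 to 0.16 for H3K4me3 and from 0.07 to 0.33 for H3K27me3. The regrouped ratios of D04 lay below these ranges and those of D05 above them. With the replicate 2 lists only the H3K4me3 ratio of D04 fell just within its range (-0.12 to 0.12). Only the A05 end was moved, and no part of A04 in return. The ratios of D04 could therefore only fall and those of D05 only rise, and a full exchange was not tested. With the D05 end left out as well, the D05 ratios were -0.04 for H3K4me3 and -0.02 for H3K27me3 in replicate 1. These splits and regroupings were chosen after the alignment was seen. The alignment itself favours equal numbers of loci, and similar bases under either mark, in every aligned stretch. Near-equal numbers within a stretch are therefore partly built in, and so is a surplus left outside it.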

How the data were processed

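ChIP-seq peak lists of 4 antibody libraries from TM-1 leaves were used. According to the methods of the study and the submitters' processing notes, the authors trimmed reads with fastp, aligned them with Bowtie2 to a published TM-1 assembly, filtered them with Picard and SAMtools and called peaks with MACS2, in narrow mode for H3K4me3 and broad mode for H3K27me3. Versions are not given in the sources used here. The deposited values are start and end positions per peak, called per library, with no score or count. Peaks on A04, A05, D04 and D05 were taken by chromosome name, and marks by deposited name. Positions are printed 1-based, in the authors' assembly. Chromosomes, members, lists and regions were chosen with earlier results of these data known. The regions named were, per chromosome, the widest replicate 1 peak of each mark, the window with most peaks of each mark, the sparsest 5 Mb and the longest H3K4me3 gap.

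Overlaps of at least 1 bp and windows by peak midpoint were counted in Python 3.11.15 with numpy 2.4.6, and intervals with scipy 1.17.1. The alignment (numba) clipped values at 2.5 SD, scaled over 100 loci on each side, assumed a correlation of 0.5 and took 2.5 off for each skipped locus. It was tested on simulated chromosomes with an exchange of known position, and overlaps were checked against bedtools 2.31.1. Alternatives were the replicate 2 lists by deposited name or label, peaks found in both replicates, a width minimum or merging at 500 bp, scaffolds, covered bases, peaks per Mb, other window and stretch sizes, larger overlaps and other alignment settings. The last were added after the data were seen. Input libraries, which have no list here, were not used, and no sequence or gene annotation of the assembly was used.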

Additional observations from a re-analysis of the deposited data

How the results depend on the processing

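Limits: the lists hold no heights, each mark has 1 list free of the label conflict, and a peak missing from a list may lie under the caller's threshold. No paired analysis was possible because no test was run. Replicate 2 ratios by deposited name or by label, given as the lowest and highest, were for H3K4me3 0.30 and 0.40 in pair 4, -0.089 and 0.38 in pair 5 and 0.060 and 0.35 in the sum, and 1.37 and 1.52 for A04 with D05 and -1.06 and -0.84 for A05 with D04. For H3K27me3 they were 0.30 and 0.40, -0.089 and 0.38, 0.060 and 0.35, 1.37 and 1.52, and -1.06 and -0.84 in the same order. The reversals in pair 5 came with the marks taken by label.

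Per Mb, which also counts the longer A chromosomes, the H3K4me3 ratio was 0.77 in pair 4, 0.54 in pair 5 (reversed), 0.57 in the sum and -0.16 for A05 with D04. For H3K27me3 it was 0.60, 0.99, 0.84 and 0.10 (reversed). Scaffolds moved the H3K4me3 ratio to 0.36 in pair 4, -0.11 in pair 5, 0.032 in the sum, 1.33 for A04 with D05 and -1.08 for A05 with D04. Peaks found in both replicates gave -0.10 in pair 5 and 0.062 in the sum, and a width minimum of 500 bp gave -0.92 for A05 with D04. Covered bases of H3K27me3 gave 0.66 in pair 5, 0.55 in the sum and 1.68 for A04 with D05. The cause of these shifts was not tested.

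Divided by the highest score of unrelated combinations, the alignment score of A04 with D04 was 1.53, and with the replicate 2 lists 0.997, under that level. All alternatives of the alignment kept A05 with D05 and A05 with D04 above it and A04 with D05 below. The share of H3K4me3 peaks under H3K27me3 was 11.6% to 14.9% where the overlap had to reach 50% of the H3K4me3 peak. It fell to between 1.6% and 2.44% where the overlap had to reach 50% of both peaks. H3K4me3 peaks are much narrower than H3K27me3 peaks, which by itself limits the second share. Of all alternatives for single chromosomes and measures, 25 were classed as moved and 61 were not. The bounds for this were wide for window medians. The H3K4me3 median of D05 fell from 61 to 32 peaks in the narrow replicate 2 list and was not classed as moved. For the pair ratios and alignment scores, 76 alternatives were classed as the same, 23 as moved, 4 as reversed and 1 as weaker.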
